A study of Apostichopus japonicus with 12 samples.

Results

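The 100 features described here are the most abundant transcribed features of the sea cucumber respiratory tree that carry an MSTRG identifier. They are the rows whose identifier starts with MSTRG, ranked by mean FPKM over all 12 libraries and kept to rank 100, out of 30908 MSTRG features and 59494 features in all. FPKM is the number of sequenced fragments scaled to feature length and to the library's total, so it allows levels to be compared between features. The members were chosen by mean FPKM over these same libraries, so their high level is a description and not a result.

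The study sequenced ribosome-depleted total RNA of the respiratory tree of Apostichopus japonicus, in 4 groups of 3 libraries. The thermal group was kept at 26 °C. In the hypoxic group the water held 2 mg/L dissolved oxygen. The combined group met 26 °C and 2 mg/L together, and the control group met neither stress. The labels state neither the temperature nor the oxygen level of the controls, nor at what oxygen level the warm group or at what temperature the hypoxic group was kept. They also leave out strain, age, the length of exposure and whether libraries came from separate animals, so p-values measure the spread between these libraries, which may be technical.

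The respiratory tree is a branched, thin-walled pair of tubes opening into the cloaca, which the animal fills with sea water and empties again to exchange gas. Warm water holds less oxygen than cool water and ectotherms use more oxygen when warm, and both stresses can meet in ponds in summer. MSTRG is the prefix that the transcript assembler StringTie gives by default to loci of a merged assembly, and such loci can be coding genes missing from an annotation, long noncoding RNAs, fragments of known genes or unprocessed transcripts. Libraries made by ribosome depletion keep RNAs with and without a poly(A) tail. The identifiers are paired with no gene name, sequence, position or coding class here, so none is given, and the tissue label could not be checked against marker genes.

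Reads were recovered from the FPKM values, as described under processing, and summed to between 20384391 and 28424597 in features per library. MSTRG features took between 22.7% and 30.9% of these reads. A member held between 8667 and 4521619 reads over the 12 libraries, with a median of 52512.5, and 94 of the 100 had at least 100 reads in every library. Counting error was therefore small for most members, and it covers the sampling of reads only, because PCR copies could not be told from separate molecules. Whether the counting used strand is not given, so reads of overlapping, antisense or near-identical features may be shared between them.

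The members' levels were steeply graded. The highest mean was 25131 FPKM, the median of the 100 means was 171 FPKM and the lowest was 105 FPKM. At or above 1000 FPKM there were 7 members, 5 more lay between 500 and 1000 FPKM, 21 between 200 and 500 FPKM, and 67 below 200 FPKM. The first member alone held 44.3% of the members' summed FPKM, the first 3 held 58.2%, the first 10 held 70.9% and the first 50 held 88.5%. Among all features of the table, MSTRG identifiers made up 2 of the 10 most abundant, 7 of the 100 most abundant and 92 of the 1000 most abundant. The last members inside the list, MSTRG.90492 and MSTRG.104082, had a mean of 105.49 FPKM each, and the first features outside it, MSTRG.92347 and MSTRG.139789, each had a mean of 104 FPKM.

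Lengths recovered from the same values ran from 243 to 6168 bases, with a median of 904. Of the members, 28 were shorter than 500 bases, 53 were shorter than 1000 and 18 had at least 3000. The 100 most abundant AJAP features, which carry the other kind of identifier in the table, had a median length of 543 bases, and 4 of them had at least 3000. Their means ran from 685 to 26917 FPKM. The median length of all 24072 MSTRG features that reached 0.5 FPKM in at least 3 libraries was 853 bases. The labels give a fragment length of about 300 bases, and 5 members were shorter than that, against 15 of the 100 AJAP features. Among the 5 was MSTRG.10643, the second most abundant member, at 291 bases. The part of fragment length in these levels was not tested.

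**Figure D1:**
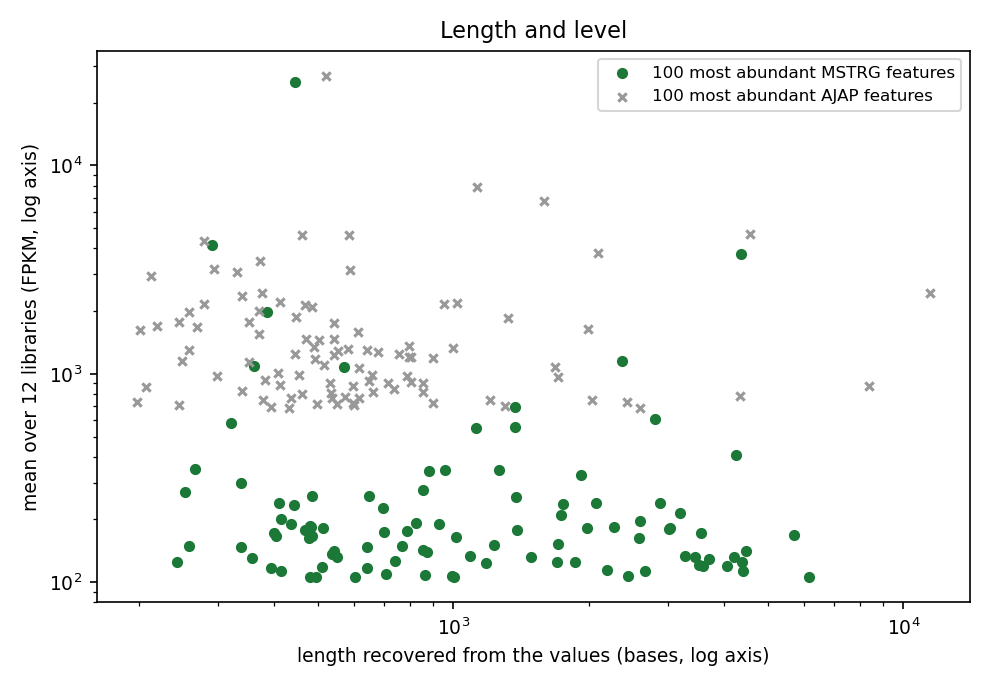
Mean level over the 12 libraries (FPKM, log axis) against recovered length (bases, log axis) for the 100 members (green points) and the 100 most abundant AJAP features (grey crosses). One member, at 25131 FPKM and 445 bases, stands far above the others, most of which lie below 200 FPKM at all lengths.

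Together the members held 8.04% ± 0.865 of a library's summed FPKM in the thermal group, 6.41% ± 0.398 in the hypoxic group, 6.91% ± 0.205 in the combined group and 6.72% ± 0.632 in the control group (SD, n = 3 each). The thermal libraries ran from 7.21% to 8.93% and the control libraries from 6.08% to 7.34%, so these ranges overlapped. As a share of reads, in which long features weigh more, the same groups gave 6.88% ± 1.09, 5.70% ± 0.258, 5.72% ± 0.188 and, in the controls, 5.995% ± 0.756. Without MSTRG.96503, which was high in 1 thermal library, the share of summed FPKM was 7.56% ± 1.23 in the thermal group and 6.65% ± 0.639 in the control group. The 90 members after the first 10 held 2.24% in the thermal, 1.86% in the hypoxic, 2.15% in the combined and 1.93% in the control group. In tissue RNA of this kind, fewer cells of a type and less RNA per cell cannot be told apart.

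MSTRG.76821 was the most abundant member and second among all 59494 features, with a length of 445 bases. It had 24093, 21635 and 35991 FPKM in the thermal libraries, 14605, 25106 and 24579 FPKM in the hypoxic libraries, 25933, 24645 and 27929 FPKM in the combined libraries, and 29811, 25343 and 21907 FPKM in the controls. All groups overlapped, and its coefficient of variation (CV, the SD over the mean) across the 12 libraries was 20.2%. It held 3.11% of all summed FPKM on average, between 1.79% in 1 library and 4.37% in another.

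MSTRG.94351 came after MSTRG.76821 and MSTRG.10643 by level and first by reads. Its 4348 bases collected 4521619 reads, 27.0% of the members' reads, where MSTRG.76821 collected 18.3%. It had 4319.8, 3626 and 5216 FPKM in the thermal libraries, 5478, 3711 and 3191 FPKM in the hypoxic libraries, 2218, 2792 and 3843 in the combined libraries and 4313, 2653 and 3653 in the controls. Its CV was 26.2% and the ranges of all groups overlapped with that of the controls.

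MSTRG.10643 had a different profile. Its level was 2947, 2763 and 3318 FPKM in the thermal libraries, 7887, 6484 and 6972 FPKM in the hypoxic libraries, 2298, 319 and 1274 FPKM in the combined libraries, and 7087, 2675 and 5571 FPKM in the controls. All combined libraries lay below all libraries of the hypoxic, thermal and control groups, and all hypoxic libraries lay above all thermal ones. The log2 change was -2.86 (SE 0.57) in the combined against the hypoxic group and -2.27 (SE 0.57) in the combined against the control group. Adjusted over all features tested, limma's p was 0.099 and 0.067, so neither passed the threshold of 0.05.

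The other members of the first 10 also spread widely. MSTRG.61317 had 2891, 2949 and 3990.5 FPKM in the thermal, 2071, 141 and 781 in the hypoxic, 994, 2902 and 2112 in the combined and 560.3, 2089 and 2267 in the control libraries. Its 3 thermal libraries were above all hypoxic and control libraries, and 1 combined library fell among them. MSTRG.50149 had 1049, 1297 and 1282 FPKM in the thermal, 617, 644 and 643 in the hypoxic, 1889.6, 2288 and 1127 in the combined and 984, 1539 and 538 in the control libraries. The hypoxic libraries were close to each other and below every thermal and every combined library, while the controls spanned them. The combined minus hypoxic log2 change was 1.42 (SE 0.35) with a limma adjusted p of 0.18.

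MSTRG.97866 had 2577, 1171 and 530.0 FPKM in the thermal, 1262, 1119 and 1417 in the hypoxic, 833, 911 and 1356 in the combined and 760.5, 528 and 524 in the control libraries. Hypoxic and combined libraries were above all controls, and thermal libraries were not. MSTRG.26505 had 1102, 862 and 948 FPKM in the thermal, 301, 563 and 343 in the hypoxic, 887, 364 and 446 in the combined and 493, 532 and 468 in the control libraries. Here the thermal libraries were above every hypoxic and every control library. MSTRG.113336 averaged 628 ± 133 FPKM in the thermal, 710.0 ± 205 in the hypoxic, 700.1 ± 133 in the combined and 744 ± 289 in the control group (SD, n = 3 each), with overlap throughout. MSTRG.63564 averaged 628 ± 61.9 FPKM in the thermal, 755 ± 191 in the hypoxic, 459 ± 72.0 in the combined and 476 ± 108 in the control group (SD, n = 3 each). Over the 9 comparisons fitted, the lowest adjusted p of any of the 10 most abundant members was 0.067 (limma).

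**Figure D2:**
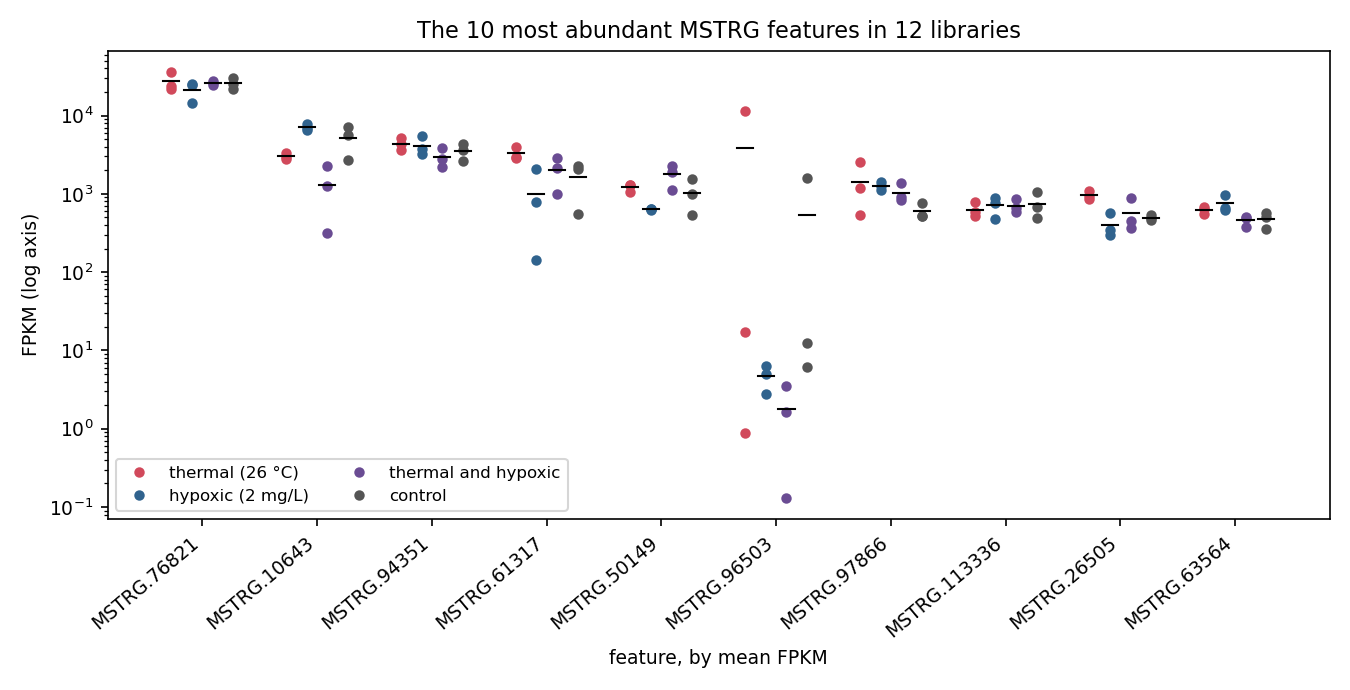
FPKM (log axis) of the 10 most abundant members, 1 point per library and a black line at each group's mean, with the thermal, hypoxic, combined (both stresses) and control groups from left to right for each feature. The points of MSTRG.96503 span from 0.132 to 11466 FPKM, while those of MSTRG.76821 stay between 14605 and 35991 FPKM.

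MSTRG.96503 owed its place to 1 library. Its level was 0.877, 11466 and 17.0 FPKM in the thermal libraries, 2.81, 6.37 and 5.03 FPKM in the hypoxic libraries, 0.132, 3.52 and 1.66 in the combined libraries, and 12.3, 1587 and 6.20 in the control libraries. Thermal replicate 2 held 87.5% of its summed FPKM, and control replicate 2 was the next highest. No other member had most of its summed FPKM in 1 library, and its CV of 302% was the largest of the list. In the comparisons its adjusted p lay between 0.32 and 0.98 (limma), so no difference between groups passed the test.

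Variation across libraries differed widely among members. The CV was under 25% for 14 members, between 25% and 50% for 52, between 50% and 100% for 29 and at least 100% for 5. The highest library was less than 3 times the lowest for 32 members and at least 10 times the lowest for 19. The median CV was 41.7% for the members, 32.3% for the 100 most abundant AJAP features and 62.2% for all 46763 features tested. Differences between group means took a median of 40.8% of a member's variance on the log2 scale. The median was 63.8% for those AJAP features and 33.2% for all features tested. Group means of 3 libraries differ even without a treatment effect and the shares were not corrected for this, so they are not the part due to treatment. The group with the highest mean was the thermal group for 32 members, the hypoxic for 22, the combined for 23 and the control for 23.

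The steadiest member was MSTRG.2048, with a CV of 14.9%. It had 205, 232 and 189.8 FPKM in the thermal, 168, 186 and 207 in the hypoxic, 145, 198 and 175 in the combined and 177, 152 and 144 in the control libraries. MSTRG.50803 had a CV of 16.2% and was among the longest members at 5706 bases. Its level was 197, 158 and 217 FPKM in the thermal, 140.4, 142 and 171 in the hypoxic, 179.6, 177 and 160.0 in the combined and 208, 144 and 135 in the control libraries. MSTRG.39460, of 337 bases, averaged 299.7 FPKM with a CV of 16.4%. In these 3 members the highest library was at most 1.62 times the lowest.

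After MSTRG.96503, the most variable members were MSTRG.29083 with a CV of 129% and MSTRG.57070 with a CV of 121%. MSTRG.29083 had 106, 379 and 58.7 FPKM in the thermal, 31.1, 50.9 and 16.9 in the hypoxic, 774, 90.2 and 58.2 in the combined and 51.0, 429 and 103 in the control libraries. One library stood high in the thermal, combined and control groups, and the hypoxic libraries were all below the others, the nearest by 50.9 against 51.0 FPKM in a control. The shortest member, MSTRG.2585 with 243 bases, had 291, 157 and 116 FPKM in the thermal, 118, 77.9 and 70.7 in the hypoxic, 165, 18.3 and 348 in the combined and 5.04, 13.1 and 127 in the control libraries. The next shortest, MSTRG.46213 with 253 bases, averaged 407 FPKM in the thermal, 159 in the hypoxic, 218 in the combined and 303 in the control libraries. The longest, MSTRG.80190 with 6168 bases, was steadier, with a mean of 106 FPKM and a CV of 26.9%.

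Members were tested for differences between groups in 1 limma model over all 46763 features that reached 0.5 FPKM in at least 3 libraries, on log2(FPKM + 0.5). All 100 members were in that set. The combined stress gave the most calls. Against the controls, 5 members passed an adjusted p of 0.05, 3 higher and 2 lower, where 1.88% of all features tested passed. By direction, 0.898% of all features passed as higher and 0.986% as lower. A further test with voom on the recovered reads called 5 members, where 0.853% of all features passed. Both counts include MSTRG.104082 and MSTRG.90492, whose places in the list rested on the libraries compared, as given below. The counts are therefore not independent of how members were chosen.

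MSTRG.104082 was 605 bases long and last in the list by level. It had 263, 176 and 187 FPKM in the combined libraries, against 46.8, 36.9 and 46.6 FPKM in the controls. The thermal libraries had 82.0, 103 and 57.8 FPKM and the hypoxic libraries 67.9, 112 and 87.6 FPKM. The combined libraries were above all others, and the controls below all others. The combined minus control log2 change was 2.24 (SE 0.27, limma adjusted p = 0.0050). These values also gave it its place at rank 100: without any 1 combined replicate, or ranked by median, it fell outside the list. The test is therefore not independent of how it was chosen and is given as a description. The change passed under all alternatives run, but these refit the same feature and do not lift that limit.

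MSTRG.58701 had 770 bases and a mean of 149 FPKM. Its level was 226, 217 and 377 FPKM in the combined libraries, against 54.3, 52.0 and 35.1 FPKM in the controls. The thermal libraries had 143, 147 and 95.7 FPKM and the hypoxic libraries 249, 83.7 and 103 FPKM, all above the controls. In the combined group it rose by 2.50 on the log2 scale (SE 0.38, limma adjusted p = 0.013), and this call too held under all alternatives run.

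MSTRG.57070, of 698 bases, had 231, 632 and 909.6 FPKM in the combined libraries, against 54.9, 25.9 and 21.5 FPKM in the controls. The thermal libraries had 21.4, 222 and 32.7 FPKM and the hypoxic libraries 173, 259 and 148 FPKM. Combined and hypoxic libraries were above every control, with 1 of 3 thermal libraries at their level. The combined minus control change was 4.01 on the log2 scale (SE 0.74, limma adjusted p = 0.023). Leaving out combined replicate 2 or 3 gave an adjusted p of 0.087 or 0.071, and leaving out control replicate 2 or 3 gave 0.063 or 0.075.

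The members that fell under both stresses were MSTRG.90492 and MSTRG.129864. MSTRG.90492, of 495 bases, had 1.92, 20.3 and 35.0 FPKM in the combined libraries, against 265, 251 and 136 FPKM in the controls. The thermal libraries had 108, 43.5 and 130.0 FPKM and the hypoxic libraries 103, 66.3 and 105 FPKM, all between the combined and the control libraries. Its log2 change was -4.11 (SE 0.77, limma adjusted p = 0.025). Its place at rank 99 rested on its controls, since without any 1 of them it fell outside the list, so this test too is not independent of the choice and is given as a description. The call was lost without combined replicate 2 (adjusted p 0.059), control replicate 1 (0.076), control replicate 2 (0.066) or control replicate 3 (0.055), and when only these groups were fitted (0.11).

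MSTRG.129864, of 443 bases, had 149, 138 and 149.8 FPKM in the combined libraries, against 381, 308 and 269 FPKM in the controls. The thermal libraries had 233, 169.7 and 277 FPKM and the hypoxic libraries 217, 295 and 233 FPKM, all above the combined ones. The change was -1.12 on the log2 scale (SE 0.23, limma adjusted p = 0.032), and leaving out any of the 6 combined and control replicates gave an adjusted p between 0.057 and 0.11. It was also lost when only these groups were fitted (0.085).

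**Figure D3:**
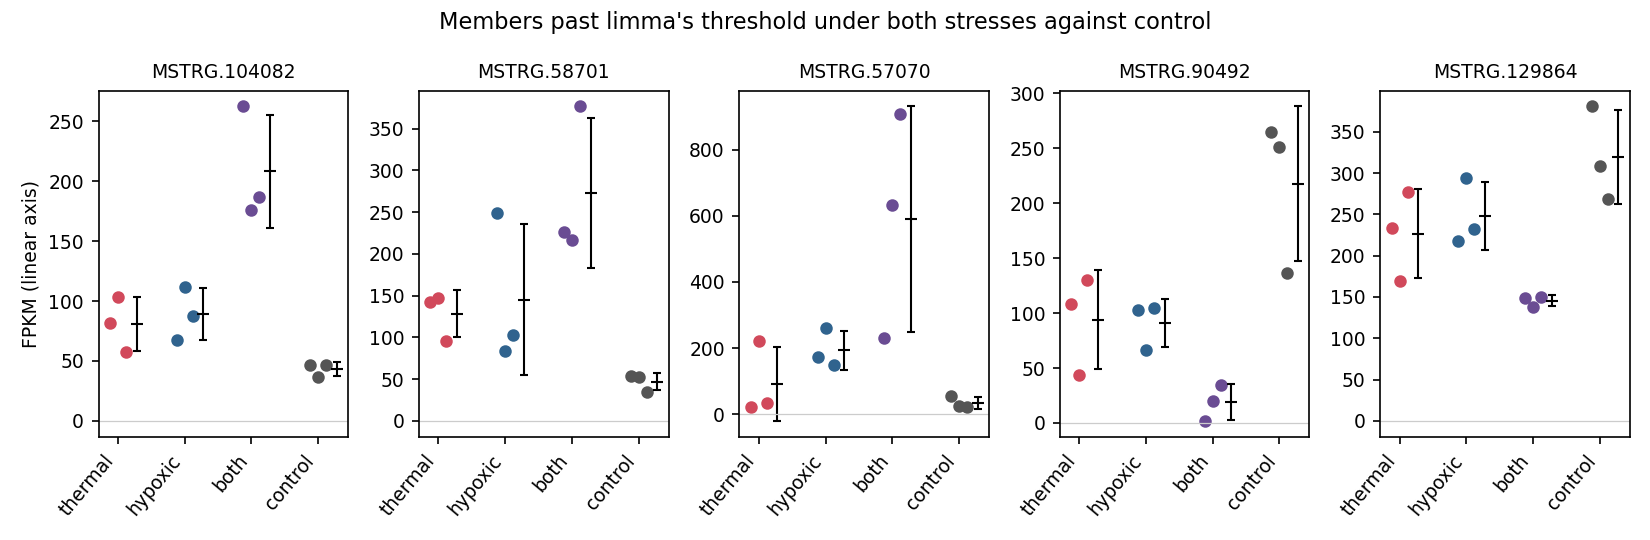
FPKM (linear axis, from 0) of the 5 members past the threshold in the combined group (both stresses) against control, 1 point per library, with the group's mean ± SD beside the points. In each panel the 3 combined libraries lie entirely above or entirely below the 3 control libraries.

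A wider count used no test. In 35 of the 100 members the combined libraries lay entirely on one side of the controls, where 20.0% of all features tested did so. They were above in 16 members, against 9.59% of all features, and below in 19, against 10.4%. At an unadjusted p under 0.05 there were 28 members, against 15.6% of all features. A change of at least 2-fold was fitted for 26 members, against 19.7% of all features. The members' median log2 change was -0.04 and that of all features -0.02. These counts include MSTRG.104082 and MSTRG.90492. All features tested had a median mean of 2.79 FPKM, against 171 FPKM for the members. Their median SD within groups was 0.62 on the log2 scale, against 0.53. The part of level and spread in these and the later counts was not tested.

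**Figure D4:**
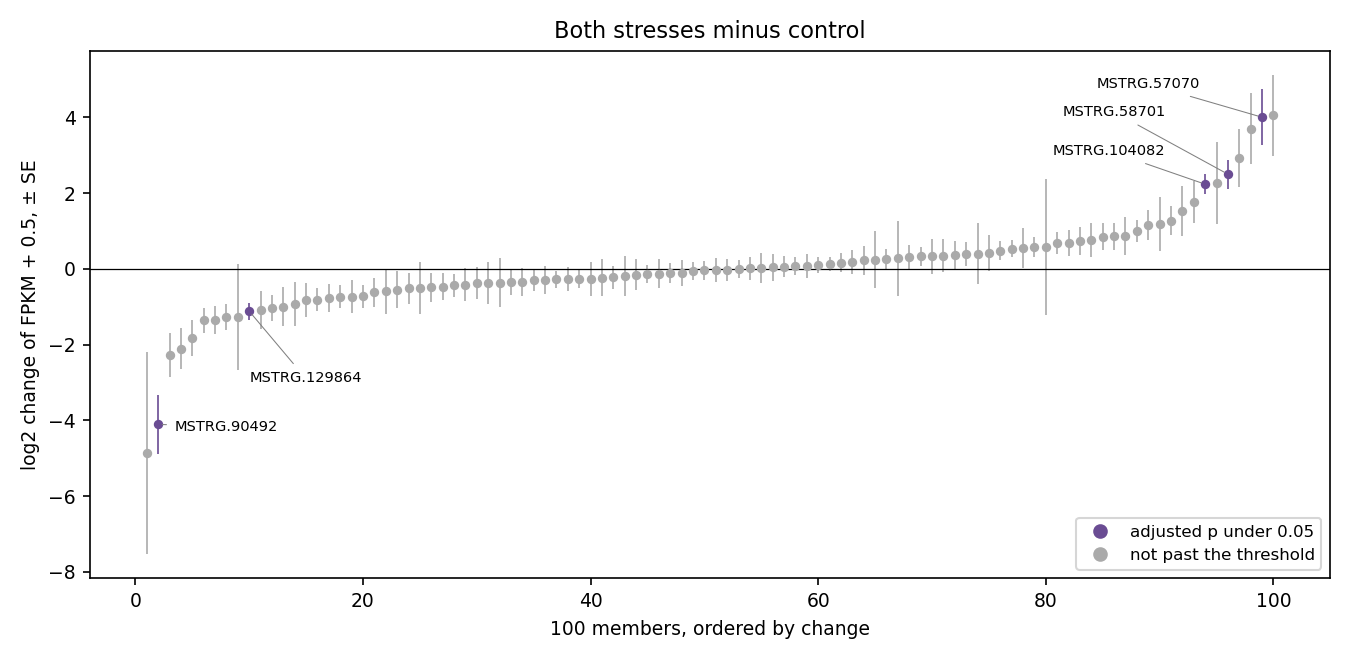
Log2 change in the combined group (both stresses) minus control with its SE for each of the 100 members, ordered by change, with the members past the adjusted p of 0.05 in purple. Members lie on both sides of 0, and the 5 past the threshold run from -4.11 to 4.01.

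Heat alone called no member. In the thermal group against control, 0 of 100 members passed limma's adjusted p of 0.05, where 0.0171% of all features did, and the count with voom was 0 as well. At an unadjusted p under 0.05 there were 23 members, against 10.3% of all features. Of these 18 were higher, against 5.85% of all features, and 5 lower, against 4.42%. In 24 members the thermal libraries did not overlap the controls, where 14.9% of all features did not overlap. They were above in 17, against 8.42% of all features, and below in 7, against 6.45%. The median log2 change was 0.18 for the members and 0.06 for all features. The smallest unadjusted p values belonged to MSTRG.58701, whose log2 change was 1.44 (SE 0.38, adjusted p 0.26), and MSTRG.36839, whose change was 3.49 (SE 0.93, adjusted p 0.26).

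Low oxygen alone also called no member. In the hypoxic group against control 0 of 100 passed, where 0.408% of all features did, and voom called 0. Without adjustment, 21 members had a p under 0.05, against 13.5% of all features. Hypoxic and control libraries did not overlap in 23 members, where 18.8% of all features did not. The hypoxic libraries were above in 12, against 8.69% of all features, and below in 11, against 10.1%. The median log2 change was -0.04 for the members and -0.08 for all features.

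The members nearest to the threshold under low oxygen moved in opposite directions. MSTRG.91314, of 3513 bases, had 157, 169 and 177 FPKM in the hypoxic libraries, against 60.6, 56.4 and 79.5 FPKM in the controls. Its log2 change was 1.37 (SE 0.30, limma adjusted p 0.072). MSTRG.96803, of 510 bases, had 22.1, 39.7 and 54.2 FPKM in the hypoxic libraries, against 204, 98.1 and 266 FPKM in the controls, a log2 change of -2.25 (SE 0.51, limma adjusted p 0.080). In both, the 3 hypoxic libraries lay entirely on one side of the controls. Without control replicate 3, MSTRG.96803 fell outside the list. Its test is therefore not independent of the choice and is given as a description. The hypoxic group was the highest for MSTRG.91314, at 168 FPKM, and raised the mean of 120 FPKM that placed it in the list. Its thermal, combined and control groups averaged 111, 137 and 65.5 FPKM. The test of MSTRG.91314 is therefore not fully independent of the choice either.

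Adding a stress to the other one called no member either. In the combined against the thermal group 0 members passed limma's threshold and 0% of all features did. At an unadjusted p under 0.05 there were 14 members, against 8.73% of all features. The log2 change of MSTRG.104082 was 1.38 (SE 0.27) with an adjusted p of 0.14, and that of MSTRG.57070 was 3.23 (SE 0.74) with an adjusted p of 0.22. Without thermal replicate 2, limma called 2 members there, MSTRG.57070 and MSTRG.86028, where 0.182% of all features passed. In the combined against the hypoxic group 0 members passed, against 0.0342% of all features, and 26 had an unadjusted p under 0.05, against 10.5% of all features. MSTRG.10643, described above, and MSTRG.104082 had the smallest p values, the second with a log2 change of 1.23 (SE 0.27, adjusted p 0.13). Voom called 0 members in both comparisons.

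Low oxygen averaged over temperature, and heat averaged over oxygen level, were taken from the same model. They assume that the hypoxic group was at the controls' temperature and the thermal group at the controls' oxygen level. Low oxygen gave 2 members past the threshold, both higher, where 0.883% of all features passed and 0.494% passed as higher. MSTRG.57070 rose by 2.90 (SE 0.52, limma adjusted p = 0.029) and MSTRG.104082 by 1.19 (SE 0.19, limma adjusted p = 0.017) on the log2 scale. For MSTRG.104082 this test and those below share the values that placed it in the list. MSTRG.57070 had a thermal mean of 91.9 FPKM and a control mean of 34.1 FPKM, both below the 105 FPKM of the last member. Its place in the list thus rested on the low-oxygen libraries. The 2 calls are therefore not independent of the choice and are given as a description. Without hypoxic replicate 2, 0 members passed, and adjusted p was 0.051 for MSTRG.104082 and 0.080 for MSTRG.57070. MSTRG.57070 was also lost without thermal replicate 1 or 3, hypoxic replicate 1, combined replicate 2 or 3, or control replicate 2 or 3, with adjusted p values between 0.057 and 0.077. The count was 4 without hypoxic replicate 3 (0.639% of all features) or combined replicate 1 (0.697%), and 5 without thermal replicate 2 (1.55%).

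Heat averaged over oxygen level gave 1 member past the threshold, where 0.372% of all features passed and 0.167% passed as higher. MSTRG.104082 rose by 1.05 on the log2 scale (SE 0.19, limma adjusted p = 0.040). Leaving out any 1 library other than thermal replicate 3 gave an adjusted p between 0.062 and 0.092. The call was also lost with no filter (0.063), with median-of-ratios scaling (0.059), with the replicate block (0.077) and with voom (0.051).

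In 3 members the 6 warm libraries were all above the 6 others, where 0.597% of all features tested had that order. MSTRG.111740, of 1263 bases, had 355, 1138 and 375 FPKM in thermal libraries and 656, 481 and 698 in the combined libraries, against 56.3, 26.9 and 100.2 in the hypoxic and 3.05, 155 and 85.9 in the control libraries. MSTRG.36839, of 1378 bases, had 314, 668 and 306 FPKM in the thermal and 558, 403 and 449.9 in the combined libraries, against 41.6, 24.7 and 111 in the hypoxic and 4.45, 127 and 72.0 in the control libraries. Control replicate 1 was the lowest library for both. The log2 change with heat was 3.68 (SE 0.76) and 3.37 (SE 0.66), with limma adjusted p values of 0.062 and 0.053 that missed the threshold. With voom they were 0.042 and 0.035, which passed. Outside the warm groups both members averaged below the 105 FPKM of the last member. They had 61.1 and 59.2 FPKM in the hypoxic and 81.3 and 67.9 FPKM in the control group. Their places in the list thus rested on the warm libraries. Their order, changes and tests are therefore not independent of the choice and are given as a description. MSTRG.139314, the other of the 3, had 193, 240.4 and 272 FPKM in the thermal and 191, 261 and 181 in the combined libraries, against 139, 175 and 123 in the hypoxic and 163, 152 and 121 in the control libraries, with a log2 change of 0.61 (SE 0.16, limma adjusted p 0.13).

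MSTRG.111740 and MSTRG.36839 varied together. Over the 12 libraries the Pearson correlation of their log2 values was 0.995 and Spearman's rho was 0.986, a description of libraries that share their treatment groups. The ratio of the first to the second, in FPKM, stayed between 0.687 and 1.70 while each level varied by at least 150.4 times. Of all 4950 pairs of members this was the only one with a correlation of at least 0.9, and the median correlation of a pair was 0.05. Among the other features tested, the one most like MSTRG.111740 was AJAP30320, with a correlation of 0.937 and a mean of 20.7 FPKM. These members were singled out after their values were seen.

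**Figure D5:**
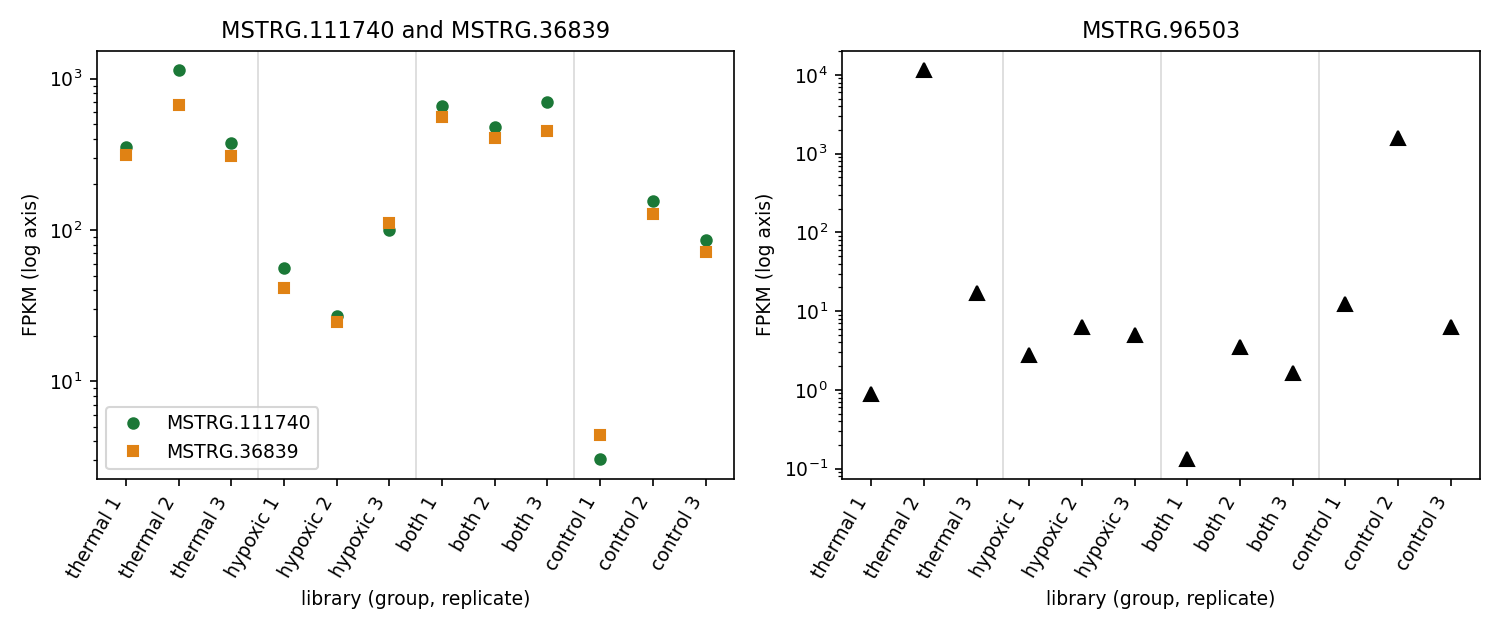
FPKM (log axis) in each of the 12 libraries, ordered as thermal, hypoxic, combined (both stresses) and control replicates, for MSTRG.111740 and MSTRG.36839 (left) and for MSTRG.96503 (right). The paired members follow each other, with 1138 and 668 FPKM in thermal replicate 2 and 3.05 and 4.45 FPKM in control replicate 1, and MSTRG.96503 stands at 11466 FPKM in thermal replicate 2, with control replicate 2 next at 1587 FPKM.

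Neighbouring identifier numbers did not bring such likeness. Only 2 pairs of members had numbers within 2 of each other. MSTRG.61317 averaged 1979 FPKM and MSTRG.61318 averaged 108 FPKM, with a correlation of 0.381 over the 12 libraries. MSTRG.26505 averaged 609 FPKM and MSTRG.26503 averaged 210.3 FPKM, with a correlation of 0.464. No source used here says whether these numbers mark neighbours in the genome.

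The interaction, which asks whether the change with low oxygen differed at 26 °C from that without heat, called 0 members and 0% of all features with limma, and 0 members with voom. At an unadjusted p under 0.05 there were 14 members, against 7.67% of all features. MSTRG.48289, of 393 bases, had 53.1, 57.8 and 109 FPKM in the combined libraries, against 139, 159.7 and 194 FPKM in the thermal libraries. In the hypoxic libraries it had 185, 144 and 107 FPKM, against 82.7, 83.1 and 91.1 FPKM in the controls. The interaction was -1.95 on the log2 scale (SE 0.41, limma adjusted p 0.48). MSTRG.35936, of 357 bases, had 113, 240.0 and 140.5 FPKM in the combined libraries, against 48.4, 209 and 62.6 FPKM in the thermal libraries. In the hypoxic libraries it had 76.4, 93.5 and 33.4 FPKM, against 161, 152 and 232 FPKM in the controls, and the interaction was 2.38 (SE 0.73, limma adjusted p 0.54).

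In a test for any difference among the 4 groups, 2 members passed, where 0.712% of all features did. They were MSTRG.104082 (limma adjusted p = 0.021) and MSTRG.58701 (0.042). The first was lost without combined replicate 1 (0.051) or control replicate 1 (0.052), 2 (0.054) or 3 (0.054). The second was lost with no filter (0.068), with the replicate block (0.067), with voom (0.068), and without thermal replicate 1, hypoxic replicate 2 or 3, or any combined or control replicate (0.061 to 0.11).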

How the data were processed

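The treatment label gave each library its group, and column names matched library titles. The values were FPKM, deposited by the authors with 1 column per library. The tools named, per the submitters' processing notes, were DESeq 1.16, Cufflinks, TopHat2 2.0.12 and Bowtie2 2.2.3. What each did, which genome build and annotation were used and how reads were counted is not given in the sources used here. Per the labels' protocols, ribosomal RNA was removed with a kit made for human, mouse and rat, and the library kit marked strand. Of 59494 identifiers, 0 were found in RefSeq's genes for assembly ASM3797524v1.

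FPKM is a whole number of reads divided by feature length and library total, so both were recovered as the values that make all of a feature's reads whole within 0.001 reads. All 59494 features, members included, gave whole reads, against 0 of 3000 with wrong totals. The 3000 were drawn only from features above 0 in several libraries, so these counts are from unlike sets. Recovered totals ran from 20387909 to 28428042 reads. Features that reached 0.5 FPKM in 3 or more of 12 libraries entered limma 3.58.1 (R 4.3.3) on log2(FPKM + 0.5), a scale that understates changes of low values, with 1 mean per group, a variance trend and Benjamini-Hochberg adjustment over 46763 features. Recovery and test were tested on simulated data. Tables and figures used Python 3.11.15, numpy 2.4.6, pandas 2.3.3 and matplotlib 3.10.9. Alternatives were other pseudocounts, filters and scalings, a replicate block, a fit restricted to the groups compared, voom on recovered reads, other rankings, and leaving out each library.

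Named members were the 10 highest, those past the threshold, 2 of smallest p where a comparison had none, the 3 steadiest and 3 most variable, ranks 99 and 100 with the 2 features next outside, those with most of their FPKM in 1 library, the 2 longest and 2 shortest, and pairs with identifier numbers within 2. The members and lists were chosen with earlier results of these data known.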

Additional observations from a re-analysis of the deposited data

Results flagged for a closer look

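In 2 members the libraries did not overlap in either comparison and low oxygen went with opposite directions. All hypoxic libraries were above all controls and all combined libraries below all thermal ones, and the reverse would also have been flagged. Of all features tested, 8.69% had the first of these orders and 7.96% the second. The share with both was not counted, so whether 2 of 100 members is unusual cannot be said. MSTRG.63564 had 974, 628 and 662 FPKM in the hypoxic libraries, against 569.9, 501 and 357 FPKM in the controls, so every hypoxic library was higher. It had 376, 497 and 503 FPKM in the combined libraries, against 677, 558 and 648 FPKM in the thermal libraries, so every combined library was lower. Its interaction was -1.12 on the log2 scale (SE 0.35), with a limma adjusted p of 0.54, which does not pass the threshold. MSTRG.48289 had the same order, with every hypoxic library above every control and every combined library below every thermal one. Its interaction was -1.95 (SE 0.41), with a limma adjusted p of 0.48. The order was read from groups of 3 libraries, and single libraries were not tested as outliers in groups of that size.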

How the results depend on the processing

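In the combined group against control, 5 members passed (1.88% of all features). When only the groups compared were fitted, 3 did (0.340%). Leaving out 1 library gave between 2 and 7, while the share of all features passing ran from 0.295% to 2.13%, with 2 without combined replicate 2 or control replicate 3. Low oxygen averaged gave 2 members (0.883% of all features), and between 0 and 5 without 1 library (0.180% to 1.55%). Neither of the 2 calls was independent of how members were chosen. Heat averaged gave 1 member (0.372% of all features). It gave 0 with no filter (0.166%), with median-of-ratios scaling (0.400%) and with the replicate block (0.148%). There were 2 with a filter at 2 FPKM (0.820%) and 2 with voom on recovered reads (0.338%). Those with voom were MSTRG.111740 and MSTRG.36839, whose places in the list rested on the warm libraries. Without 1 library there were between 0 and 2 (0.0556% to 0.242% of all features). The test for any group difference gave 2 members (0.712% of all features). It gave 1 with no filter (0.296%), 1 with the replicate block (0.192%) and 1 with voom (0.257%). Without 1 library it gave between 0 and 4 (0.137% to 1.05% of all features). The combined against the thermal group gave between 0 and 2 without 1 library, with 2 without thermal replicate 2 (0.182% of all features). Thermal against control, hypoxic against control, combined against hypoxic and the interaction gave 0 members under all alternatives run.

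Whether replicate numbers pair the libraries could not be settled from these values. The 18 pairs with the same number had correlations of their deviations from group means between -0.08 and 0.086. Pairs with different numbers had between -0.056 and 0.079, and 4 of 12 libraries correlated best with their own number. With the replicate block, the combined group against control gave 5 members (1.28% of all features) and low oxygen averaged gave 2 (0.573%). MSTRG.129864 then had an adjusted p of 0.058 in the combined group against control, MSTRG.104082 had 0.077 for heat averaged and MSTRG.58701 had 0.067 for any group difference.

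Ranking by mean recovered reads in place of FPKM kept 44 members, ranking by median kept 94, by mean log2 value 92 and after median-of-ratios scaling 100. Leaving out 1 library kept between 96 and 99. MSTRG.104082 left the list without thermal replicate 2, hypoxic replicate 2 or any combined replicate, and MSTRG.90492 without any control replicate. The members' mean share of summed FPKM was 7.02%, and 6.07% as a share of reads. Without the first 10 members it was 2.04%, and without MSTRG.96503, an alternative chosen after seeing the data, it was 6.88%. Without 1 library it lay between 6.85% and 7.12%. At the recovered depth 94 of 100 members had at least 100 reads in every library, and MSTRG.96503 rested on 1 read in its lowest library.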

Other observations

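Some likenesses belong to no comparison above, and the features in them were chosen after their values were seen. MSTRG.57070 was most like AJAP16247, with a Pearson correlation of 0.965 over the 12 libraries, and 3 of 46762 features tested reached 0.95 with it. One of these was AJAP11584, with a correlation of 0.962 and a mean of 332 FPKM. For MSTRG.96503 the most similar feature was MSTRG.49511, with a correlation of 0.945 and a Spearman's rho of 0.725, at a mean of 1.52 FPKM.

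Among the 4950 pairs of members, 2 had a correlation of -0.9 or lower. MSTRG.90492 and MSTRG.104082, which fell and rose under both stresses, had -0.91 (rho -0.944). MSTRG.3789 and MSTRG.71216 had -0.92 (rho -0.88). All of these correlations are descriptions over 12 libraries that share treatment groups, and MSTRG.90492 and MSTRG.104082 differ between the same groups.

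MSTRG.30978 had, after MSTRG.96503, the next largest ratio of the highest to the lowest library among the members with a CV of at least 100%, at 995. It had 9.95, 241 and 207 FPKM in the thermal, 43.5, 0.717 and 184 in the hypoxic, 228, 713 and 20.3 in the combined and 33.2, 100.3 and 299 in the control libraries. The groups overlapped throughout, and its lowest library held 12 reads.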
